A study of Mus musculus with 2 samples.

Results

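Chondroitin sulfate proteoglycans (CSPGs), tenascins and a link protein of the extracellular matrix were followed through the oligodendrocyte lineage of the uninjured and the injured mouse optic nerve. The 9 genes were chosen by name: Vcan, Bcan, Ncan, Ptprz1, Cspg4, Cspg5, Tnr, Tnc and Hapln2. All 9 were found among the 31053 genes of the single-cell RNA sequencing (scRNA-seq) tables. Their levels were described in oligodendrocyte progenitor cells (OPCs), newly formed oligodendrocytes (NFOs) and oligodendrocytes, as the study's authors typed the barcodes.

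The study made 2 scRNA-seq libraries, each from 5 pooled optic nerves: an injured one, taken around the lesion 2 weeks after optic nerve crush (ONC), and an uninjured one. The mice were wildtype, of the 129S1/SvlmJ strain, with both sexes pooled; they were 10 weeks old at collection, with ONC at 8 weeks. In the labels both samples carry the crush treatment and an age of 56 days. The title, and the condition given for the barcodes (control or crush), told which was uninjured. With 1 library of pooled animals per condition there is no replicate, no p-value was computed, and the 95% intervals below cover only the error of counting unique molecular identifiers (UMIs).

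CSPGs carry chains of chondroitin sulfate on a core protein. The lecticans versican, brevican and neurocan bind hyaluronan with one end and tenascins with the other, and link proteins fasten them to hyaluronan, which builds the matrix around axons and at nodes of Ranvier. Ptprz1 (a receptor tyrosine phosphatase), Cspg4 (NG2) and Cspg5 (neuroglycan C) span the membrane. OPCs are a known source of CSPGs in the central nervous system, and several of these molecules are known to inhibit axon growth.

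Bcan and Hapln2 are neighbours on mouse chromosome 3, and their levels went opposite ways along the lineage, as described below. Bcan (ENSMUSG00000004892) lies at chr3:87987531-88000230 and Hapln2 (ENSMUSG00000004894) at chr3:88021750-88027583 of GRCm38, both on the minus strand. The gap between them is 21519 bases long and holds 0 annotated genes. The promoters of these genes are shown because the pair is adjacent and opposite, and that of Tnr because it alone among the promoters examined held the SOX core letters. The sequences are from RefSeq (GRCm38.p6), with 250 bases before and 50 after the start, at chr3:88000307-88000606 (minus strand) for Bcan, chr3:88027462-88027761 (minus strand) for Hapln2 and chr1:159523519-159523818 (plus strand) for Tnr. The gene coordinates above are from GENCODE, which places the Bcan start elsewhere than RefSeq. The Bcan window therefore lies wholly outside those coordinates, in the gap. Capitals mark the motif matches.
Bcan: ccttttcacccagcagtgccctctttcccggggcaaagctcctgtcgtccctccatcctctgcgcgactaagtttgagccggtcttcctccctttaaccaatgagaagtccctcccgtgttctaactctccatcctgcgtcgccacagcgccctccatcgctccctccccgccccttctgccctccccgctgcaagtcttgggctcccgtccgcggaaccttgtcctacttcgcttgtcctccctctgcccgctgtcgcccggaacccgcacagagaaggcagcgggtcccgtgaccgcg
Hapln2: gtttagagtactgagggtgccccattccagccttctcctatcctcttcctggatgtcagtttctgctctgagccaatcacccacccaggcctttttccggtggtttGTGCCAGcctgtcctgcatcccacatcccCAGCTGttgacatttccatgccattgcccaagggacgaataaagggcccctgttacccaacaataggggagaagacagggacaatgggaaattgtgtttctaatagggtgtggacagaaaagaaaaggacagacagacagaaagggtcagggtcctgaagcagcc
Tnr: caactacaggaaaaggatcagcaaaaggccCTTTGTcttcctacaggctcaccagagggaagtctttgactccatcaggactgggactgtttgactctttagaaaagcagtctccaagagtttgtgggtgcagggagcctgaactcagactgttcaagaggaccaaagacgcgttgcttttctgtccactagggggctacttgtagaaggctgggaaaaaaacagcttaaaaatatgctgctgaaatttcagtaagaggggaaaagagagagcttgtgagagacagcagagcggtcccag
Motifs were searched on both strands. The SOX core ACAAAG was in 18.7% of 32851 promoters, the E-box CAGCTG in 16.3% and the MYRF letters CTGGCAC or CTGGTAC in 7.10%. Of the 8 genes with a promoter entry, Tnr held 1 SOX core at -220, Hapln2 held 1 E-box at -115 and 1 MYRF match at -144, and Ncan held 1 E-box at -58. The Bcan window, like those of the other genes, held none of these letters. A match is a description of the letters and not a binding site.

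The other genes lie apart. Vcan (ENSMUSG00000021614) is at chr13:89655312-89742509, Ncan (ENSMUSG00000002341) at chr8:70093085-70120873, Ptprz1 (ENSMUSG00000068748) at chr6:22875502-23052916 and Tnr (ENSMUSG00000015829) at chr1:159523769-159931729. Cspg4 (ENSMUSG00000032911) and Cspg5 (ENSMUSG00000032482) are both on chromosome 9, at chr9:56865033-56899870 and chr9:110243783-110262576. Tnc (ENSMUSG00000028364) is at chr4:63959785-64047015. The values are per gene: of the 8 coding transcripts annotated for Vcan and the 3 for Ptprz1, the forms were not told apart. Vcan, Ncan, Cspg5, Tnr and Tnc overlap other annotated genes, and whether their reads were kept apart was not given in the sources used here.

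The uninjured library held 58 OPCs, 44 NFOs and 857 oligodendrocytes with 171329, 94130 and 4149375 UMIs. The injured library held 17 OPCs, 100 NFOs and 293 oligodendrocytes with 117597, 351851 and 2302349 UMIs. The median UMIs per barcode were 2290 and 4120 in uninjured and injured OPCs, 1259.5 and 1258.5 in NFOs, and 3060 and 1268 in oligodendrocytes. No barcode sequence was shared between the libraries. The types were set by the authors from the same values, so the markers only describe them. The 10 OPC markers summed to 7436 and 6633 CPM (counts of the group's UMIs scaled to a total of 1000000) in OPCs against 97.1 and 100.3 CPM in oligodendrocytes, and the 10 NFO markers summed to 6491 and 8856 CPM in NFOs against 2977 and 1905 CPM in OPCs. The 10 oligodendrocyte markers summed to 67565 and 65537 CPM in oligodendrocytes and to 8329 and 12528 CPM in NFOs, where 84.1% and 80% of barcodes held 2 or more of them. NFOs also held OPC markers, and 2 or more were present in 70.5% (uninjured) and 53% (injured) of them. The 8 immune cell markers summed to 10.6 to 23.3 CPM in the uninjured groups and 170.1 to 452 CPM in the injured groups, and 33% of injured NFO and 33.1% of injured oligodendrocyte barcodes held 2 or more of them. The share of barcodes with under 0.5% of UMIs from the nuclear RNA Malat1 was 63.6% in uninjured and 77% in injured NFOs, 5.60% and 45.4% in oligodendrocytes, and 0% and 29.4% in OPCs. The part of these differences in the results was not tested.

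Along the lineage, 7 of the 9 genes had their low point in oligodendrocytes by a wide margin, Hapln2 had its high point there, and Tnc was nearly absent throughout. The summed level of Vcan, Bcan, Ncan, Ptprz1, Cspg4, Cspg5 and Tnr was 12759 CPM in uninjured OPCs, 5822 in NFOs and 39.0 in oligodendrocytes. In the injured library it was 11395 CPM in OPCs, 3783 in NFOs and 55.2 in oligodendrocytes. A gene was called when its CPM differed at least 2-fold between groups that together held at least 50 UMIs of it. In uninjured OPCs over oligodendrocytes, 6 of the 7 genes with enough UMIs were called higher, where 18.6% of all 7806 genes were, and 1 (Hapln2) was called lower, where 17.5% were. In the injured library the counts were also 6 higher and 1 lower of 7, beside 18.4% and 20% of 6276 genes. In NFOs over oligodendrocytes, 5 of 6 were higher and 1 lower in both libraries, where 20.4% and 16% of 7651 genes were in the uninjured library, and 13.5% and 19.4% of 6563 genes in the injured one. The median log2 ratio of OPC over oligodendrocyte was 8.47 over the genes tested in the uninjured library, against 0.12 over all genes, and 7.55 against 0.12 in the injured library. The types were drawn from clusters of the same expression values, so these contrasts between types are descriptions. Genes such as Cspg4 (98 and 4 UMIs, uninjured OPCs and oligodendrocytes) or Ptprz1 (414 and 1, injured) reached 50 UMIs only through the OPCs, so their direction was fixed by passing the minimum, and the count is no support for it.

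**Figure D1:**
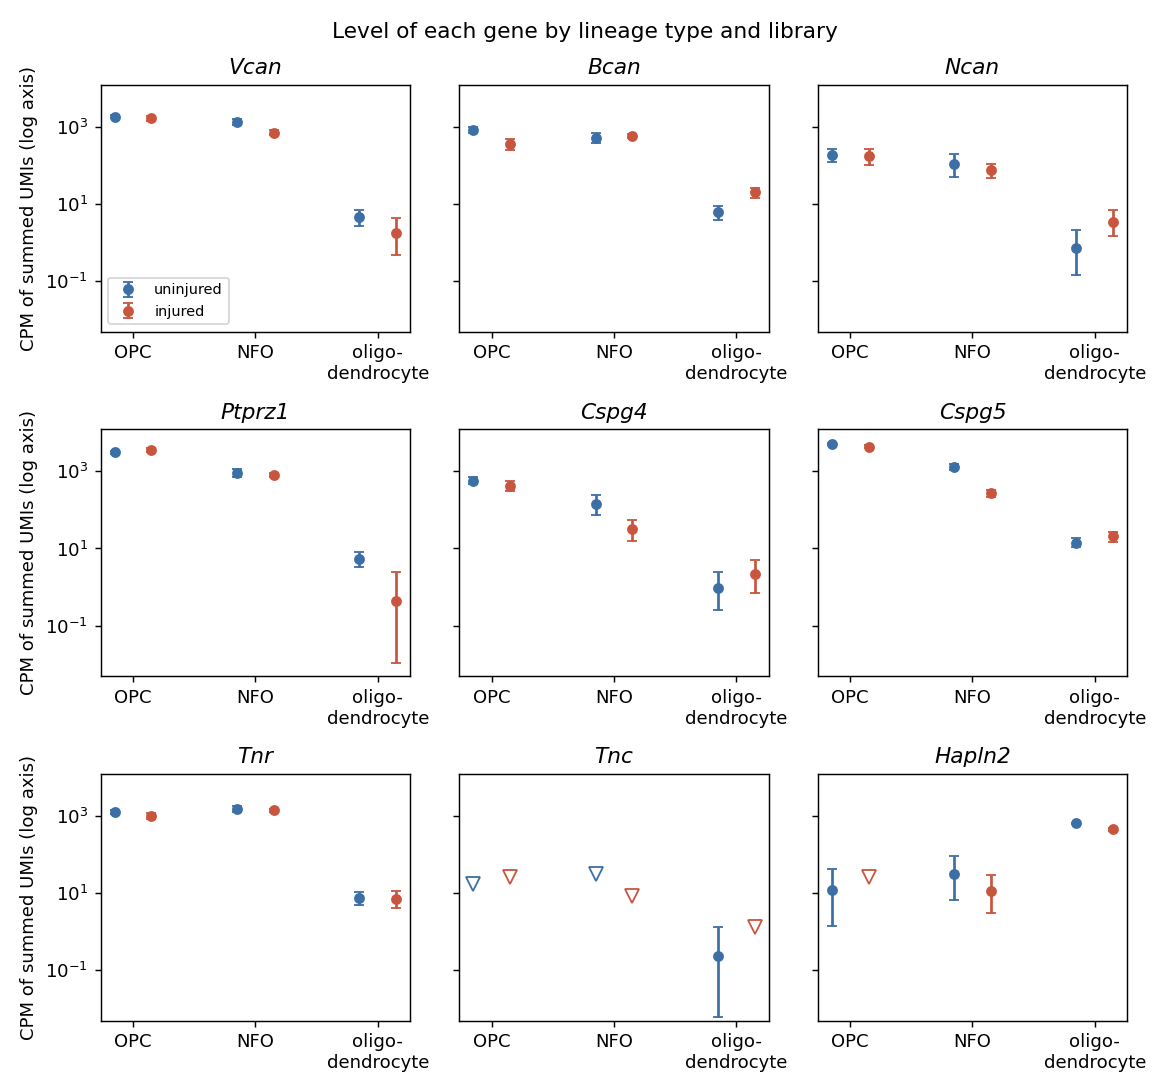
CPM of summed UMIs (log axis) of each of the 9 genes in OPCs, NFOs and oligodendrocytes of the uninjured (blue) and the injured (red) library, with exact Poisson 95% intervals for counting error as bars and open triangles at the floor of 3 UMIs per group where 0 UMIs were counted. From OPC to oligodendrocyte, 7 genes go down from at least 170.1 CPM to at most 20.4 CPM, whereas Hapln2 is highest in oligodendrocytes at 636 and 439 CPM and Tnc has 1 UMI in all.

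The lecticans went down between NFO and oligodendrocyte more than between OPC and NFO. Vcan (versican), a large matrix proteoglycan, was at 1827 CPM in uninjured OPCs, 1349 in NFOs and 4.58 in oligodendrocytes, and at 1649.7, 705 and 1.74 CPM in the injured library. OPC and NFO levels of Vcan were 1.35-fold apart (95% interval 1.10 to 1.68) in the uninjured and 2.34-fold apart (1.93 to 2.84) in the injured library, and OPC over oligodendrocyte was 399-fold and 950-fold. Bcan (brevican), the lectican of the adult brain matrix, was at 805 CPM in uninjured OPCs, 521 in NFOs and 6.03 in oligodendrocytes, and at 349, 571 and 19.98 CPM in the injured library. The order of OPC and NFO thus differed between the libraries for Bcan: OPC over NFO was 1.55 (1.11 to 2.19) in the uninjured and 0.610 (0.425 to 0.857) in the injured library. Ncan (neurocan), a lectican of the developing brain, was low: 181 CPM (31 UMIs), 106 (10 UMIs) and 0.723 (3 UMIs) in the uninjured library, and 170.1 CPM (20 UMIs), 73.9 (26 UMIs) and 3.47 (8 UMIs) in the injured one. One injured NFO held 21 of the 26 Ncan UMIs.

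The membrane-bound proteoglycans were highest in OPCs. Ptprz1, whose ligands include pleiotrophin and contactin 1, was at 3076 CPM in uninjured OPCs, 903 in NFOs and 5.30 in oligodendrocytes, and at 3521, 776 and 0.434 CPM in the injured library. Cspg4, the NG2 antigen by which OPCs are often recognised, was at 572, 138 and 0.964 CPM, and at 408, 31.3 and 2.17 CPM after injury. Cspg5, a proteoglycan with an EGF-like domain, was at 5055, 1285 and 14.2 CPM, and at 4320, 264 and 20.4 CPM after injury. OPC over NFO was 3.41 (2.70 to 4.34) for Ptprz1, 4.14 (2.31 to 8.05) for Cspg4 and 3.93 (3.25 to 4.80) for Cspg5 in the uninjured library. These were the 3 of 6 genes called higher in OPCs than in NFOs there, where 12.6% of 867 genes were. In the injured library the ratios were 4.54 (3.88 to 5.31), 13.1 (6.69 to 27.9) and 16.3 (13.1 to 20.6), and with Vcan 4 of 6 genes were called higher, where 7.71% of 1855 genes were. Cspg4 held 98 and 13 UMIs in uninjured OPCs and NFOs, and 48 and 11 in injured ones. It passed the minimum mainly through the OPCs, so these counts are no support for its direction. The median log2 ratio was 1.20 over the 6 in the uninjured library, against -0.23 over all genes, and 1.70 against -0.11 in the injured one. Under a mean of CPM over barcodes, which weights each barcode equally, 5 of 6 were higher in the uninjured library, where 158 of all 867 genes were, in place of 109.

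The tenascins parted. Tnr (tenascin-R), a partner of the lecticans made by oligodendrocyte lineage cells, was at 1243 CPM in uninjured OPCs and 1519 in NFOs, and at 978 and 1361 CPM after injury. Its level in oligodendrocytes was 7.23 and 6.95 CPM. Of the 7 genes that were low in oligodendrocytes, Tnr had the lowest ratio of OPC over NFO in the uninjured library, at 0.818 (0.659 to 1.02), and in the injured library it was 0.718 (0.581 to 0.882). The direction turned with the weighting: with a mean of CPM over barcodes the ratio of Tnr was 1.30 in the uninjured and 1.11 in the injured library. Tnc (tenascin-C), which astrocytes and developing glia are known to make, had 1 UMI, in 1 uninjured oligodendrocyte, among 1369 barcodes. It was at 0 of 58 and 0 of 17 OPCs, which allows a share of up to 5.17% and 17.6% of barcodes with a UMI (3 counts of the total), and at 0 of 100 injured NFOs, which allows up to 3%.

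Hapln2 (Bral1), the link protein that tethers versican at central nodes of Ranvier, ran the other way. It had 2639 UMIs in uninjured oligodendrocytes, a level of 636 CPM (612 to 661), and 1011 UMIs in injured ones, a level of 439 CPM (412 to 467). In uninjured OPCs and NFOs it had 2 and 3 UMIs (11.7 and 31.9 CPM), and in injured ones 0 and 4 (0 and 11.4 CPM). Oligodendrocytes over OPCs were 54.5-fold higher (15.1 to 450.1) in the uninjured library and at least 17.2-fold higher in the injured one, against a floor of 3 UMIs over the 17 OPCs. In oligodendrocytes, 72.8% of uninjured and 41.0% of injured barcodes held a Hapln2 UMI, against 3.45% and 0% of OPCs, where free RNA would also be counted. Thinned to 500 UMIs per barcode, so that depth was equal, the shares in oligodendrocytes were 27.8% and 11.8%. Median depths of the oligodendrocytes and OPCs are given above, and 19 uninjured oligodendrocytes and 2 uninjured OPCs with fewer than 500 UMIs were left out.

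**Figure D2:**
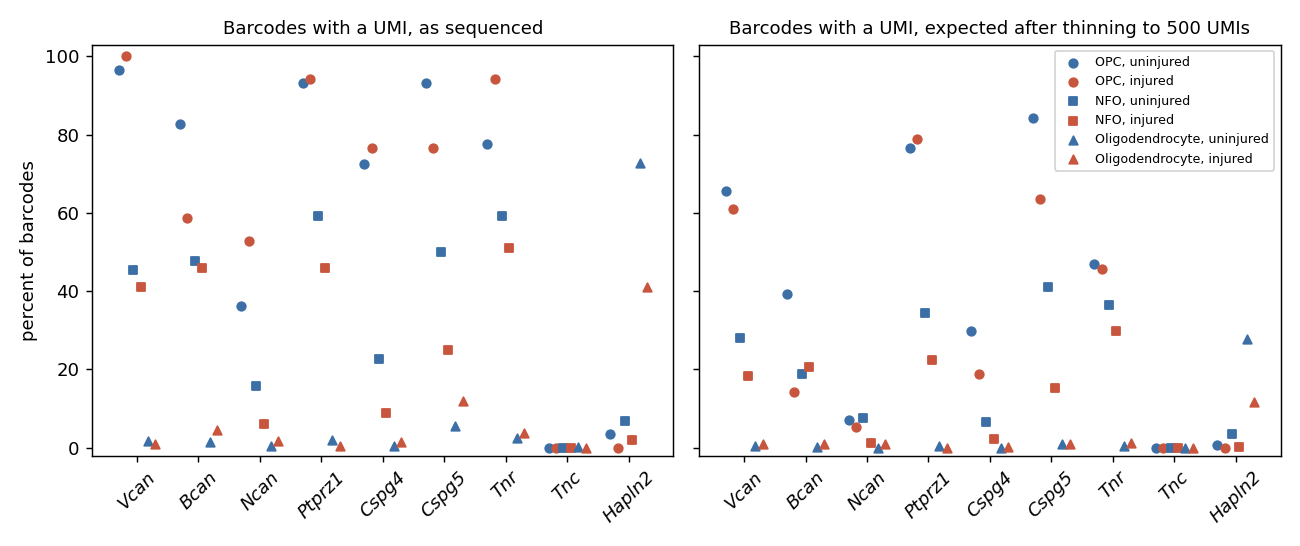
Percent of barcodes with at least 1 UMI of each gene, as sequenced (left) and expected after each barcode is thinned to 500 UMIs (right), with circles for OPCs, squares for NFOs, triangles for oligodendrocytes, blue for uninjured and red for injured. Thinning takes Hapln2 in oligodendrocytes from 72.8% and 41.0% to 27.8% and 11.8%. The 7 genes that were low in oligodendrocytes go from at most 11.9% of them (Cspg5, injured) to at most 1.10%.

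Single barcodes showed the genes together. Of the 7 genes that were low in oligodendrocytes, the median OPC held UMIs of 6 in both libraries, and at least 4 were found in 89.7% (78.8% to 96.1%) of uninjured and 82.4% (56.6% to 96.2%) of injured OPCs. No OPC lacked all 7. The median NFO held 3 in the uninjured and 2 in the injured library, and 11.4% (3.79% to 24.6%) and 30% (21.2% to 40.0%) of NFOs held none. NFOs with at least 0.5% of UMIs from Malat1 had at least 4 of the 7 in 62.5% of 16 uninjured and 69.6% of 23 injured barcodes, whereas the other NFOs had at least 4 in 32.1% of 28 and 18.2% of 77. These NFOs also differed in depth, with medians of 2930.5 and 3214 UMIs against 1060.5 and 1137. In oligodendrocytes, 89.5% (87.2% to 91.5%) of uninjured and 80.2% (75.2% to 84.6%) of injured barcodes held none. With at least 0.5% Malat1, 89.4% of 809 uninjured and 72.5% of 160 injured ones held none, at median depths of 3250 and 9803.5 UMIs. With less Malat1, 91.7% of 48 and 89.5% of 133 held none, at medians of 1168.5 and 774 UMIs. The part of depth in these shares was not tested.

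**Figure D3:**
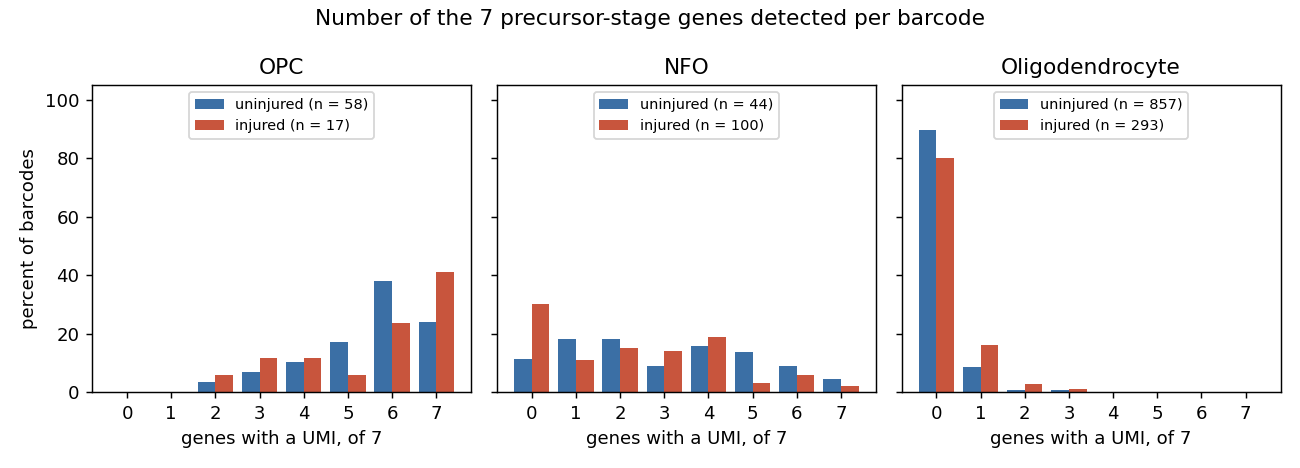
Percent of barcodes (bars, from 0) by the number of Vcan, Bcan, Ncan, Ptprz1, Cspg4, Cspg5 and Tnr with at least 1 UMI, for OPCs, NFOs and oligodendrocytes of the uninjured (blue) and injured (red) library. OPCs lie around a median of 6, NFOs spread from 0 to 7 and oligodendrocytes pile up at 0 (89.5% and 80.2%).

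The injured and the uninjured library were then compared within each type. In OPCs, Bcan was lower after injury and the other genes lay within 2-fold. Bcan was at 805 CPM (677 to 952; 138 UMIs) in uninjured and 349 CPM (250.2 to 473; 41 UMIs) in injured OPCs, a ratio of 0.433 (0.298 to 0.617), so the intervals of the levels did not overlap. Of 7 genes tested, 0 were called higher, where 10.3% of all 993 genes were, and 1 was called lower, where 6.45% were. The median log2 ratio of the 7 was -0.23, against 0.24 over all genes. With TMM scaling, which assumes that most genes do not differ, 72 of all genes were higher and 77 lower in place of 102 and 64, and the Bcan ratio was 0.407.

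For the other genes in OPCs, the ratio of injured over uninjured was 0.903 (0.751 to 1.08) for Vcan, 0.940 (0.508 to 1.70) for Ncan and 0.714 (0.494 to 1.02) for Cspg4, and these intervals held 1. That of Ptprz1 was 1.14 (1.004 to 1.30), of Cspg5 0.855 (0.764 to 0.955) and of Tnr 0.787 (0.621 to 0.991). A Bcan UMI was present in 82.8% (uninjured) and 58.8% (injured) of OPCs, and thinned to 500 UMIs in 39.2% and 14.3%. Pdgfra, the growth factor receptor that defines OPCs, was at 2142 and 961 CPM in the same barcodes, and with OPCs that held a Pdgfra UMI only, the Bcan ratio was 0.432. The injured OPCs were few. Without barcodes with 2 or more markers of other cell types (astrocyte, immune, fibroblast and pericyte, endothelial), 6 injured and 33 uninjured OPCs were left. The Bcan ratio was then 0.164 and that of Cspg5 was 0.466. Among OPCs, 39.7% (uninjured) and 41.2% (injured) held 2 or more astrocyte markers, against 0% and 17.6% for immune cell markers. The astrocyte markers summed to 765 and 451 CPM in OPCs, of which Slc1a2 gave 444 and 298. Whether these RNAs came from other cells was not tested. With OPCs under 8000 UMIs only, the Cspg5 ratio was 0.398.

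**Figure D4:**
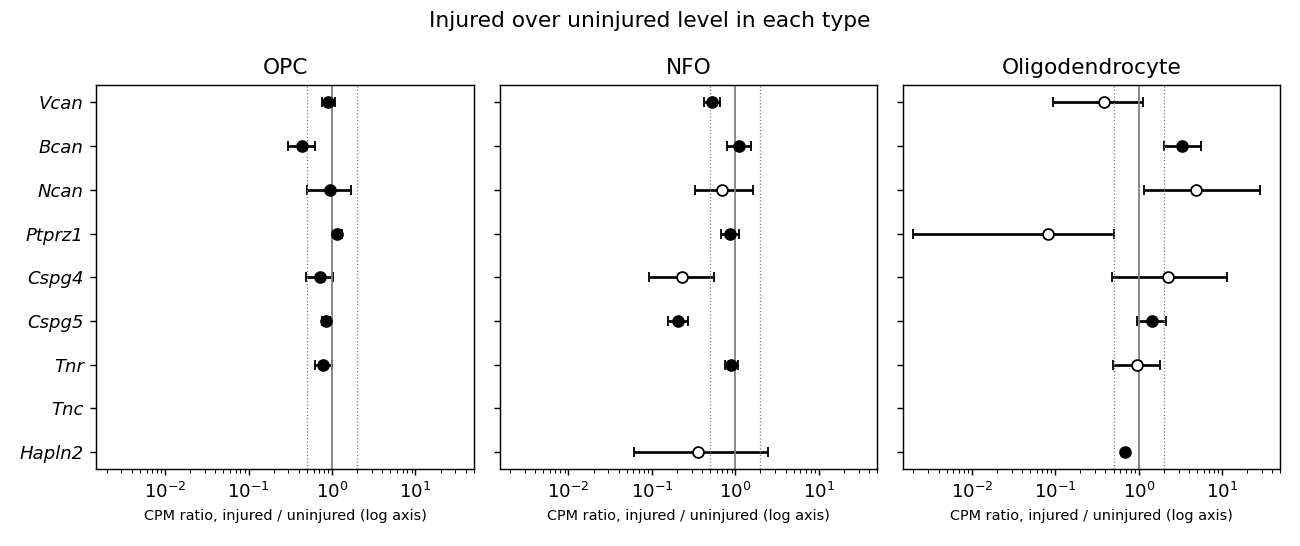
Ratio of injured over uninjured CPM (log axis) of each gene in OPCs, NFOs and oligodendrocytes, with exact conditional 95% intervals for counting error; filled points have at least 50 UMIs over both libraries, open points fewer, dotted lines mark 0.5 and 2, and genes with at most 3 UMIs in each group are not drawn. Bcan lies at 0.433 in OPCs and 3.32 in oligodendrocytes, and Cspg5 at 0.206 in NFOs.

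In NFOs, Cspg5 was lower after injury. It was at 1285 CPM (1067 to 1536; 121 UMIs) in uninjured and 264 CPM (213 to 324; 93 UMIs) in injured NFOs, a ratio of 0.206 (0.155 to 0.272). Of 5 genes tested, 0 were called higher, where 13.3% of 1695 genes were, and 1 was called lower, where 4.01% were. The median log2 ratio of the 5 was -0.22, against 0.20 over all genes. Vcan came close to the threshold, with 1349 and 705 CPM and a ratio of 0.522 (0.420 to 0.652). The top uninjured NFO held 44 of 127 Vcan UMIs, and the top injured NFO 27 of 248. Without both of these barcodes the ratio was 0.684. Bcan, at 1.10 (0.800 to 1.53), Ptprz1, at 0.859 (0.671 to 1.11), and Tnr, at 0.896 (0.742 to 1.09), had intervals that held 1. Cspg4 had 13 UMIs in uninjured and 11 in injured NFOs, too few to be called, with a ratio of 0.226 (0.0918 to 0.548).

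The Cspg5 value in NFOs moved with the kind of barcode. In NFOs with under 0.5% Malat1, Cspg5 was at 3491 CPM (2858 to 4223) in 28 uninjured and 502 CPM (385 to 644) in 77 injured barcodes, a ratio of 0.144. In NFOs with at least 0.5% Malat1 it was at 235 CPM (132 to 388) in 16 uninjured and 136 CPM (92.2 to 193) in 23 injured barcodes, a ratio of 0.577 on 46 UMIs, and the call did not stand there. Tnr went the other way, with 1850.4 and 1602 CPM in the NFOs richer in Malat1 against 823 and 915 CPM in the others, and Vcan was at 1725 and 884 against 560 and 373 CPM. Without the NFOs that held a Pdgfra UMI, which left 34 uninjured and 91 injured barcodes, the Cspg5 ratio was 0.159. Without NFOs that held 2 or more markers of other cell types it was 0.151.

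**Figure D5:**
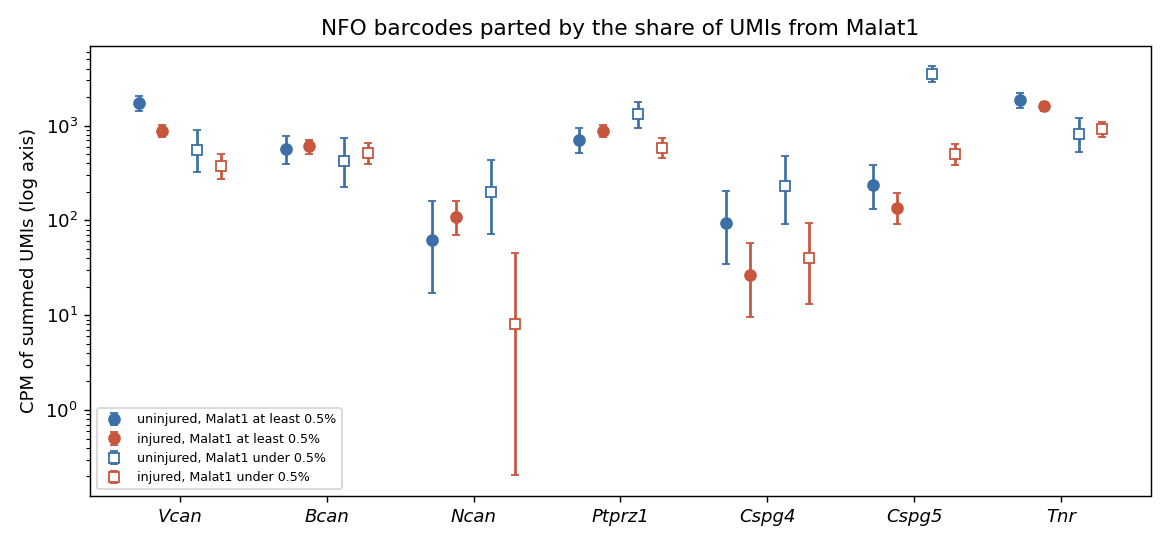
CPM of summed UMIs (log axis) of 7 genes in NFO barcodes with at least 0.5% (filled circles) or under 0.5% (open squares) of UMIs from Malat1, uninjured in blue and injured in red, with exact Poisson 95% intervals. Cspg5 is highest in the uninjured barcodes with under 0.5% Malat1 (3491 CPM), whereas Tnr is higher in the barcodes with at least 0.5% (1850.4 and 1602 against 823 and 915 CPM).

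In oligodendrocytes, Bcan was higher after injury, from a low level, and Hapln2 was lower by less than 2-fold. Bcan had 25 UMIs in uninjured and 46 in injured oligodendrocytes, 6.03 CPM (3.90 to 8.89) and 19.98 CPM (14.6 to 26.7), a ratio of 3.32 (2.00 to 5.63). Of 3 genes tested, 1 was called higher, where 5.98% of 8591 genes were, and 0 were called lower, where 4.06% were. The median log2 ratio of the 3 was 0.52, against 0.05. For all genes, 514 were higher and 349 lower; with TMM scaling 415 and 478 were, and with a mean of CPM over barcodes 509 and 1941 were, with a median log2 ratio of -0.38 in place of 0.05. The Bcan ratio was 3.09 with TMM scaling and 5.94 with the mean over barcodes.

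The Bcan UMIs in injured oligodendrocytes were in 13 of 293 barcodes (4.44%, 2.38% to 7.47%), against 13 of 857 (1.52%, 0.810% to 2.58%) in uninjured ones. One injured oligodendrocyte with 50775 UMIs held 16 of the 46. Without the barcode with most Bcan UMIs in each library the ratio was 3.22, on 47 UMIs. In barcodes with at least 0.5% Malat1, Bcan was at 6.13 and 18.9 CPM. Cspg4, which oligodendrocytes should lack, was found in 0.467% (0.127% to 1.19%) and 1.37% (0.373% to 3.46%) of oligodendrocytes and these intervals overlap those of Bcan. The CPM intervals of Cspg4 and Bcan did not overlap in uninjured (0.263 to 2.47, 3.90 to 8.89) or injured oligodendrocytes (0.705 to 5.07, 14.6 to 26.7). Injured OPCs and NFOs held 48 and 11 UMIs of Cspg4 but 41 and 201 of Bcan, so Cspg4 cannot give the free RNA level of Bcan. The part of free RNA was not tested. Thinned to 500 UMIs, Bcan was found in 0.222% and 1.03%. In injured oligodendrocytes the 46 UMIs of Bcan stood beside 1 of Ptprz1, whereas injured OPCs held 41 and 414 and injured NFOs 201 and 273. In uninjured oligodendrocytes there were 25 and 22.

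Hapln2 was at a ratio of 0.690 (0.642 to 0.743) in oligodendrocytes. In those with at least 0.5% Malat1 its level was 642 CPM in 809 uninjured and 455 CPM in 160 injured barcodes. In those with less Malat1 it was 271 CPM in 48 and 164 CPM in 133. The ratio was 0.386 as a mean of CPM over barcodes, 0.437 in barcodes under 8000 UMIs and 0.470 without barcodes holding other cell types' markers, all past 2-fold. Cspg5 was at 14.2 and 20.4 CPM in oligodendrocytes, a ratio of 1.44 (0.957 to 2.14). A Cspg5 UMI was present in 5.48% (uninjured) and 11.9% (injured) of these barcodes, and thinned to 500 UMIs in 1.06% and 1.09%. Barcodes that held Hapln2 together with at least 1 of the 7 genes numbered 75 of 624 in the uninjured and 42 of 120 in the injured library. Among all oligodendrocytes, 89.5% and 80.2% held none of the 7. Of these barcodes, 72 and 40 had at least 0.5% Malat1, a part with median depths of 3250 and 9803.5 UMIs. The part of depth in these counts was not tested.

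The genes that make, modify, cut and bind these molecules were taken as 6 lists of 82 genes. None of the 6 other lecticans, link proteins and tenascins reached 50 UMIs in any comparison: Acan (aggrecan) and Tnn had 0 UMIs, and Hapln1, Hapln3 and Hapln4 had at most 3 per group, while Tnxb (tenascin-X) had 6 in uninjured and 21 in injured oligodendrocytes (1.45 and 9.12 CPM) and at most 3 elsewhere (these genes were named after their values were seen). Of 22 genes for the synthesis and sulfation of chondroitin sulfate chains, 10 were tested in uninjured OPCs over oligodendrocytes. Of these, 7 were higher and 0 lower, where 18.6% and 17.5% of all genes were. The median log2 ratio of the 10 was 1.46, against 0.12 over all genes. Xylt1 (119 and 11 UMIs in OPCs and oligodendrocytes) and Chst11 (49 and 3) passed the minimum mainly through the OPCs. The count is therefore no support for their direction. Chpf2, called on 5 and 57 UMIs, had a ratio of 2.12 with an interval that held 1 (0.664 to 5.25). In the injured library 3 were tested, 2 higher and 0 lower, where 18.4% and 20% of all genes were. Xylt1, which adds the first sugar of the chain, was at 695 CPM in uninjured OPCs, 149 in NFOs and 2.65 in oligodendrocytes, and at 451, 28.4 and 3.04 CPM after injury. Chst11, a chondroitin 4-O-sulfotransferase, was at 286 CPM in uninjured and 102 CPM in injured OPCs, a ratio of 0.357 (0.173 to 0.681), and was the 1 called of 2 genes of this list tested there. In NFOs, Ust, which sulfates uronic acid of the chain, was the only gene of this list tested, with a ratio of 2.73 (1.10 to 8.76) on 51 injured and 5 uninjured UMIs. Ust and Chst11 (49 uninjured and 12 injured UMIs in OPCs) passed the minimum mainly through the higher group. These calls are therefore no support for their direction. In oligodendrocytes, 1 of 8 was lower, Chst12 (0.462, 0.299 to 0.695), and 0 were higher, where 4.06% and 5.98% of all genes were. Chst12 (30 injured and 117 uninjured UMIs) passed the minimum mainly through the uninjured group, so its call is no support for its direction. The median log2 ratio of the 8 was 0.07, against 0.05 over all genes.

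Of 18 other proteoglycan core proteins, Spock1 and Spock3 (testicans) were found almost only in oligodendrocytes. Spock1 was at 139.8 CPM in uninjured and 291 CPM in injured oligodendrocytes (ratio 2.08, 1.86 to 2.33), and Spock3 at 272 and 136 CPM (ratio 0.498, 0.438 to 0.565), with at most 1 UMI of either in any OPC or NFO group. Sdc3 (syndecan 3) followed the OPC pattern, at 543, 138 and 0.482 CPM uninjured and 357, 68.2 and 1.74 CPM injured. In oligodendrocytes 4 of these genes were tested between the libraries, 3 higher and 1 lower, where 5.98% and 4.06% of all genes were. The median log2 ratio was 1.58, against 0.05 over all genes. The others called were Gpc1 (4.28, 3.18 to 5.83) and Sdc1 (10.6, 5.19 to 24.5). Sdc1 (53 injured and 9 uninjured UMIs) passed the minimum mainly through the injured group, so its call is no support for its direction.

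Of 13 genes for cleavage and degradation, 8 were tested in oligodendrocytes between the libraries, and 3 were higher and 1 lower after injury, where 5.98% and 4.06% of all genes were (median log2 ratio 0.49, against 0.05). The higher ones included Adamts1, a lectican-cutting protease (37.4 and 112.9 CPM, ratio 3.02, 2.47 to 3.71), and the lysosomal enzyme gene Hexa (2.30, 1.95 to 2.72). The lower one was Adamts20 (0.364, 0.219 to 0.579). Adamts20 (22 injured and 109 uninjured UMIs) passed the minimum mainly through the uninjured group, so its call is no support for its direction. Adamts4, another lectican-cutting protease, was at 154 and 156 CPM in oligodendrocytes, against 17.5 and 0 CPM in OPCs and 42.5 and 85.3 CPM in NFOs. Arsb, which removes sulfate from chondroitin sulfate, was at 601, 988 and 63.1 CPM in uninjured OPCs, NFOs and oligodendrocytes and at 408, 571 and 57.3 CPM after injury. None of the 13 genes was called between the libraries in OPCs or NFOs, where Arsb alone was tested in each. Of the 8 hyaluronan genes, 1 was tested between the libraries, in oligodendrocytes, and it was not called: Hyal2, a hyaluronidase named here after its values were seen, had 34 and 16 UMIs (8.19 and 6.95 CPM).

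Among the 15 receptors and ligands, Itgb1 (integrin beta 1, a receptor chain for matrix proteins) was higher after injury in all 3 types, at 204 and 646 CPM in OPCs (ratio 3.16, 2.09 to 4.87), 159 and 739 in NFOs (4.64, 2.76 to 8.41) and 98.8 and 261 in oligodendrocytes (2.65, 2.33 to 3.01). The immune cell markers given above were also higher in the 3 injured groups, and immune cells express Itgb1; their part in these values was not tested. Of this list, 1 of 7 genes tested was higher and 0 lower in OPCs, where 10.3% and 6.45% of all genes were, and the median log2 ratio was -0.35 against 0.24 over all genes. In NFOs 1 was higher and 2 lower of 7, where 13.3% and 4.01% of all genes were (median 0.10 against 0.20), and in oligodendrocytes 3 were higher and 0 lower of 7, where 5.98% and 4.06% were (0.41 against 0.05). Cntn1 (contactin 1), a partner of Ptprz1 and Tnr, was at 1658, 531 and 5.06 CPM in the uninjured library and at 1199, 173 and 3.04 CPM after injury, and was called in NFOs (0.326, 0.221 to 0.484). Ptn (pleiotrophin), a ligand of Ptprz1, was at 669 and 253 CPM in NFOs (0.378, 0.271 to 0.530), whereas in OPCs it was at 1436 and 1454 CPM. In oligodendrocytes, Ptprs, a receptor for CSPGs, was at 36.2 and 84.7 CPM (2.34, 1.88 to 2.92). Nrcam, an adhesion molecule of nodes, was at 3.37 and 41.3 CPM there (12.2, 6.94 to 23.2). Nrcam in oligodendrocytes (95 injured and 14 uninjured UMIs) and Itgb1 in NFOs (260 and 15) passed the minimum mainly through the injured group. These 2 calls are therefore no support for their direction.

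Genes with the most similar pattern were found by Pearson's r of log2(CPM + 10) over the 6 groups of type and library, among 9153 genes. The 6 points come from 2 libraries and mostly set OPCs and NFOs apart from oligodendrocytes, so high values are common. Closest to Ptprz1 was Ugdh (r = 0.999), to Cspg4 Zfp36l1 (0.9997) and then Xylt1 (0.999), to Cspg5 B3glct (0.998), to Tnr A930009A15Rik (0.998), and to Hapln2 the myelin gene Mal (0.999). Bcan and Ncan had Psmg2 (0.996) and 3632451O06Rik (0.997) as the closest. Ugdh, which makes the UDP-glucuronic acid used for chondroitin sulfate chains, was at 315, 191 and 16.4 CPM in uninjured OPCs, NFOs and oligodendrocytes and at 366, 188 and 14.8 CPM after injury. Mal was at 75.9, 212 and 7313 CPM, and at 17.0, 62.5 and 4944 CPM after injury.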

How the data were processed

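The authors aligned and counted the reads with Cell Ranger 1.3 (mm10), filtered barcodes, drew equal numbers per library, typed them, and deposited only barcodes of the oligodendrocyte lineage, as natural log values: each UMI count was divided by the barcode's total, multiplied by 10000, increased by 1 and logged (Seurat 4.0.3). Raw UMIs were recovered from the smallest value of each barcode and were whole within 0.001 in all barcodes. UMIs were summed per type and library (4414834 uninjured, 2771797 injured) and given as CPM, with exact Poisson, Clopper-Pearson and conditional binomial 95% intervals for counting error. The recovery and intervals were tested on simulated data. No doublet caller was run.

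The genes and lists were chosen with earlier results of these data known. All 9 genes are named, and from each list and comparison up to 4 called genes with most UMIs and, by likeness, up to 3 genes per member, of which the report gives some. Some genes that these rules name are not reported here. Coordinates are from GENCODE on GRCm38, counted from 1. The authors' test over cells was not repeated, because cells of 1 library are not replicates. Alternatives changed the UMI minimum, filter, depth, Malat1 share, scaling (TMM) and weighting. Python 3.11.15, numpy 2.4.6, scipy 1.17.1, pandas 2.3.3 and matplotlib 3.10.9 were used.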

Additional observations from a re-analysis of the deposited data

Results flagged for a closer look

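Bcan moved in opposite directions in 2 types of the same libraries, which is why it is listed: the ratio of injured over uninjured CPM was 0.433 in OPCs and 3.32 in oligodendrocytes. With 1 library per condition the difference between these ratios was not tested. The oligodendrocyte value rests on 46 and 25 UMIs in 13 injured and 13 uninjured barcodes, and the OPC value on 41 and 138 UMIs in 17 and 58 barcodes.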

How the results depend on the processing

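No paired analysis was possible because each condition has 1 library. No called ratio changed direction. Of 192 recomputed counts of called genes, 33 moved by over 1.5 times, and 26 of 122 ratios between libraries moved beyond the interval of their main value, as did 94 of 341 ratios between types and 80 of 117 shares of barcodes. For injured over uninjured OPCs, the count of lower genes (main 1) was 0 with at least 200 summed UMIs, and 2 under 8000 UMIs or without barcodes with other cell types' markers. In NFOs it (main 1) was 0 with Malat1 of at least 0.5%, and 2 with at least 20 summed UMIs, under 8000 UMIs, without other markers, with Malat1 under 0.5% and without a Pdgfra UMI (the last pair of settings was chosen after seeing the data). In oligodendrocytes the count of lower genes (main 0) was 2 with at least 20 summed UMIs and 1 with mean CPM, under 8000 UMIs or without other markers; the count of higher genes (main 1) was 0 with at least 200 summed UMIs, under 8000 UMIs, without the top barcode or without other markers, because Bcan then had too few UMIs to be counted. For NFO over oligodendrocyte in the uninjured library, higher genes (main 5) numbered 0 with at least 200 summed UMIs and 1 with Malat1 under 0.5%, and lower ones (main 1) 0 with Malat1 under 0.5%; in the injured library lower ones (main 1) were also 0 there. For OPC over oligodendrocyte in the injured library, higher genes (main 6) numbered 2 with at least 200 summed UMIs, 3 under 8000 UMIs or with Malat1 under 0.5%, and 1 without other markers, and lower ones (main 1) 0 in the last pair of settings. For OPC over NFO, higher genes numbered 5 (main 3) with mean CPM in the uninjured library and 2 (main 4) with Malat1 of at least 0.5% in the injured one, where lower genes (main 0) numbered 1 under 8000 UMIs, with TMM, without other markers or with Malat1 under 0.5%. Smaller subsets leave fewer genes above the UMI minimum; other causes were not tested. With TMM, the median log2 ratio over all genes was -0.45 in place of 0.12 for uninjured OPC over oligodendrocyte and -0.51 in place of 0.12 for the injured. The values of Ncan, of Cspg4 in NFOs and of all 7 genes in oligodendrocytes rest on few UMIs, at most 59 per group. The part of depth in these low counts was not tested.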
